A study of Homo sapiens with 17 samples.

Results

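The genes described here are 56 ribosome biogenesis factors of the nucleolus, proteins that transcribe, cut, modify and fold ribosomal RNA and load it with ribosomal proteins. The rule names them by their function in the known assembly pathway and uses no measured value. The members were chosen with earlier results of these data known. 27 members build the small (40S) subunit, of which 21 belong to the early processome and 6 act on late 40S precursors. A further 16 build the large (60S) subunit, 7 are proteins of the small nucleolar ribonucleoproteins (snoRNPs), 4 are general nucleolar proteins and 2 are subunits of RNA polymerase I. Of the 9016 genes tested at 36 h and the 10896 tested at 72 h, 55 and 56 were members. WDR36 was not analysed here at 36 h.

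Ribosomes are made in the nucleolus. RNA polymerase I transcribes a long precursor RNA, the small subunit processome forms on its 5′ end while it is still being made, and snoRNPs guide the methylation and pseudouridylation of its bases. Endonucleases and helicases then separate the precursor into pre-40S and pre-60S particles, which mature on separate routes and leave for the cytoplasm. The nucleolus is also known to respond to DNA damage.

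The study asked how a DNA break made by Cas9 changes translation and transcript levels. HEK293 cells, an established human embryonic kidney line, were electroporated with purified Cas9 or with dCas9, the catalytically dead form that binds DNA without cutting it, each bound to the sgIntron guide against intron 12 of JAK2. Every library came from cells that received a nuclease, a guide and an electroporation, so the dCas9 cells shared all of these except the break. The labels give 300 pmol of nuclease and 300 pmol of guide, while the methods also give a smaller amount. Guides were synthetic at 36 h and transcribed in vitro at 72 h, and a replicate is a pool of electroporations on 1 plate. At 36 h there were 2 Cas9 and 2 dCas9 libraries of ribosome footprints (the stretches of mRNA that ribosomes shield from nuclease) and 3 Cas9 and 2 dCas9 libraries of rRNA-depleted total RNA, called mRNA here. At 72 h there were 2 libraries of each kind for each nuclease, which makes 17 in all.

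Depth differed most among the footprint libraries at 36 h, which held 689636 (dCas9 replicate e) to 4868580 counts (dCas9 replicate d) over the transcripts used. Footprint libraries at 72 h held 3183555 to 8864461 counts, and mRNA libraries held 25095505 to 33350952 at 36 h and 33040296 to 42825667 at 72 h. Of the markers of HEK293 cells, VIM stood at 599 to 2380 CPM (read counts scaled to a common, TMM-normalised library size), KRT18 at 51.1 to 144 and NEFL at 37.7 to 159, while NEFM (2.65 to 25.8), KRT8 (at most 9.74) and PAX2 (at most 2.03) were low. PTPRC, ALB and PECAM1, which mark leukocytes, hepatocytes and endothelium, did not exceed 0.839 CPM, COL1A1 of fibroblasts stood at 3.49 to 26.1, and HBB and CD3E were not analysed here. In bulk RNA, fewer cells that express a gene and less RNA per cell cannot be told apart.

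The members were abundant. In dCas9 cells, their median mRNA level per length was 90.35 CPM per kilobase of counted coding sequence at 36 h, against 32.7 over all tested genes, and 77.12 against 24.77 at 72 h. The median footprint level of the members was 73.88 CPM per kilobase at 36 h, against 28.27 over all genes, and 75.04 against 19.95 at 72 h. Members together took 0.915 to 1.20% of the counts of a library, without WDR36. By class, the median mRNA level at 72 h was 372 CPM per kilobase for the general nucleolar proteins, 302 for the snoRNP proteins, 82.1 for large subunit factors, 45.4 for small subunit factors and 35.8 for the polymerase subunits.

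NPM1, nucleophosmin, a histone and ribosome chaperone, had the highest mRNA level of the members at both times, at 1673 CPM per kilobase in dCas9 cells at 36 h and 2343 at 72 h. The annotation lists 49 pseudogenes of NPM1, so its counts may hold reads of near-identical copies. NHP2 of the H/ACA snoRNPs followed with 750.2 and 610.5 CPM per kilobase of mRNA, and FBL, fibrillarin, the methyltransferase of the C/D snoRNPs, with 620.0 and 473. At the other end, UTP20, a very long scaffold of the processome, had 14.9 CPM per kilobase of mRNA at 36 h and 19.5 at 72 h, and GAR1, a small core protein of the H/ACA snoRNPs, had 20.0 and 8.90, the lowest of the members at 72 h. UTP15 of the processome followed at 36 h with 22.2, and UTP3 at 72 h with 23.5. In footprints, NPM1 was again first at both times (1233 and 1710 CPM per kilobase), while UTP20 (16.6 and 11.9), MPHOSPH10 and DDX10 were last.

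The ratio of footprint to mRNA level varied widely between members, also between members of the same complex. It is given as the log2 ratio minus the median of all tested genes, from group means. GAR1 of the H/ACA snoRNPs had the highest ratio of the members, 2.88 in dCas9 cells at 36 h and 3.86 at 72 h. Its mRNA at 72 h rested on few counts, 136 and 282 in the dCas9 libraries. NHP2, of the same snoRNPs, stood at −0.65 at 36 h and −0.26 at 72 h. NOP56 of the C/D snoRNPs had the lowest ratio, −1.07 and −1.02. IMP3 of the U3 snoRNP stood at 1.52 and 1.66, whereas MPHOSPH10, its partner in the same trimer, stood at −0.91 at 36 h. BYSL (bystin), a late 40S factor, had 1.51 at 36 h, and TSR1, another late 40S factor, had −0.95. RRS1, which helps to bring the 5S particle into the pre-60S, had 1.55 at 72 h, while RIOK1, a kinase of late 40S maturation, had −0.75 and WDR43 of the processome −0.68.

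The annotation places 25 snoRNA genes within 7 members (NCL, NOP56, NOP58, DKC1, WDR43, TSR1 and GNL3), whose spans host them. In dCas9 cells, 4 of 7 hosts lay below the median of all genes at 36 h and 5 of 7 at 72 h, with a median log2 ratio of −0.365 and −0.421. The other members had a median of 0.00495 and 0.0441, with 24 of 48 and 21 of 49 below. With 7 hosts these counts are close to an even split, and they are a description of levels, without a test.

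**Figure D1:**
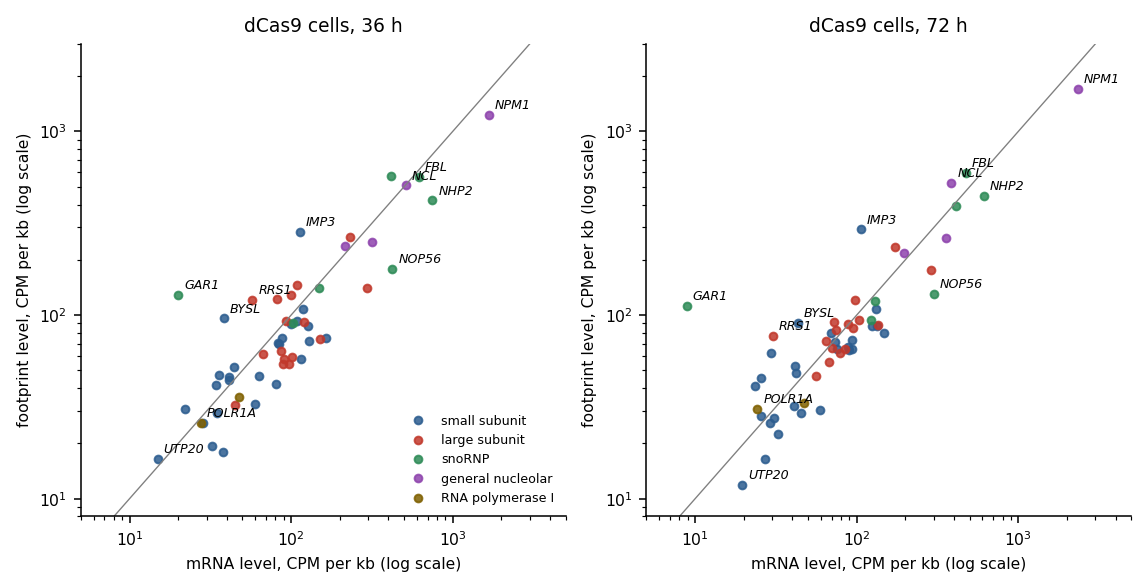
Footprint level against mRNA level of each member in dCas9 cells at 36 h and 72 h, both in CPM per kilobase of counted coding sequence on log axes, as group means coloured by class, with a line of equal level. NPM1 lies at the top right at 2343 CPM per kilobase of mRNA at 72 h, GAR1 far above the line at 8.90, and NOP56 below it.

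At 36 h, no member's footprints differed between Cas9 and dCas9 cells at a false discovery rate of 0.1 in the quasi-likelihood test of edgeR (p-values adjusted after Benjamini and Hochberg over all genes), where 0.0% of all genes did. DESeq2 called 0 members as well. At an unadjusted p under 0.05 there was 1 member, RIOK1, where 2.09% of all genes passed. The median log2 fold change of the members was −0.03, beside 0.01 over all genes, and the median size of change was 0.179 for members and 0.266 for all genes. These sizes were not matched for footprint level, which was higher in the members. The groups did not overlap for 7 members that were higher with Cas9 and for 8 that were lower, where 15.9% and 14.6% of all genes were.

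RIOK1 footprints were at 39.8 and 31.1 CPM in the Cas9 libraries (replicates a and c) and at 53.3 and 99.2 in the dCas9 libraries (d and e). Both Cas9 values lay below both dCas9 values, and the highest came from the library with the fewest counts. Its log2 fold change was −1.07 (SE 0.409, n = 2 and 2, adjusted p = 0.999, edgeR). Footprints of UTP20 stood at 97.8 and 89.6 CPM with Cas9 against 110.6 and 164 with dCas9 (log2 fold change −0.53, SE 0.285). For WDR12, a subunit of the PeBoW complex of the large subunit, the values were 48.4 and 66.6 against 68.2 and 79.7 CPM.

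Among members whose groups did not overlap, the largest increases were those of EMG1, an rRNA methyltransferase of the small subunit, POLR1A, the catalytic subunit of RNA polymerase I, and IMP3. EMG1 footprints were at 79.5 and 54.5 CPM with Cas9 and at 41.6 and 36.1 with dCas9 (log2 fold change 0.75, SE 0.385, unadjusted p = 0.0668, adjusted p = 0.999, edgeR). POLR1A footprints were at 212 and 138 CPM against 130.0 and 134, so that 1 Cas9 library stood far above the other 3. IMP3 footprints were at 175 and 185 CPM against 139 and 141, with little spread in either group, and a log2 fold change of 0.36 (SE 0.234). The most familiar nucleolar proteins hardly differed: NPM1 was at 989 and 945 CPM against 1075 and 952 (log2 fold change −0.07, SE 0.138). NCL (nucleolin) stood at −0.11, FBL at −0.03 and DKC1, the pseudouridine synthase dyskerin, at −0.01 on the log2 scale.

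In mRNA at 36 h, 0 members passed the false discovery rate of 0.1 in edgeR and 0 in DESeq2, where 0.0222% of all genes passed in edgeR. At an unadjusted p under 0.05 there were 2, IMP4 and UTP20, where 4.68% of all genes passed. The median log2 fold change of the members was −0.04, beside 0.00165 over all genes, 34 of 55 members lay below 0, and the whole range was −0.24 to 0.21. Among the large subunit factors 12 of 16 lay below 0. The groups did not overlap for 1 member that was higher and 5 that were lower with Cas9, where 8.6% and 8.29% of all genes were.

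IMP4, the third protein of the IMP3 and MPHOSPH10 trimer, had 81.6, 70.4 and 73.1 CPM of mRNA in the Cas9 libraries (a, b and c) and 84.6 and 92.7 in the dCas9 libraries (d and e). All Cas9 values were below all dCas9 values, with a log2 fold change of −0.24 (SE 0.115, n = 3 and 2, adjusted p = 0.999, edgeR). DKC1 mRNA was at 192, 188 and 209 CPM with Cas9 against 224 and 219.7 with dCas9 (−0.18, SE 0.0972). NOLC1 (Nopp140), a chaperone of snoRNPs, was at 397, 392 and 409.6 against 427 and 445 CPM (−0.13, SE 0.0931). GAR1 was the member that was higher without overlap, at 12.5, 12.3 and 16.2 against 11.6 and 12.0 CPM (0.21, SE 0.237). DKC1, NOLC1 and GAR1 thus lay within 2 standard errors of 0.

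At 36 h footprint and mRNA libraries share letters, and the paper describes dividing each lysate for both kinds of library. Libraries with the same letter were therefore taken as the same lysate, which gives a ratio for each of 4 lysates. The labels do not state this pairing. Deviations of libraries with the same letter correlated at 0.062 (Cas9) and 0.0101 (dCas9), which cannot decide it with so few libraries. Translational efficiency, the change in footprints minus the change in mRNA, was fitted over both kinds of library. It passed the false discovery rate for 0 members in edgeR and 0 in DESeq2, where 0.0% of all genes passed in edgeR. At an unadjusted p under 0.05 there were 4 members, where 6.3% of all genes passed, and 6 members were higher and 9 lower without overlap between lysates, where 16.4% and 14.9% of all genes were. EMG1 had log2 ratios of 0.42 and −0.10 in the Cas9 lysates (a and c) and −0.40 and −1.12 in the dCas9 lysates (d and e), a fitted difference of 0.89 (SE 0.337, adjusted p = 0.78, edgeR). RIOK1 had −1.01 and −1.56 against −0.76 and 0.11, a difference of −0.95 (SE 0.348, adjusted p = 0.78, edgeR). EMG1 was thus higher and RIOK1 lower in both Cas9 lysates, without passing the adjusted test.

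The other members with large differences and no overlap between lysates were IMP3, with log2 ratios of 1.84 and 2.27 against 1.55 and 1.49, and RRS1, with 1.55 and 1.75 against 1.12 and 1.35. UTP20 had −0.16 and −0.65 against −0.07 and 0.68, and NOP58, a core protein of the C/D snoRNPs, had −0.72 and −0.27 against 0.13 and −0.14. The dCas9 lysate e, whose footprint library was the shallowest, gave the lowest ratio of EMG1 and the highest of RIOK1 and UTP20.

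At 72 h, mRNA of 6 members fell with Cas9: NCL, NOB1, GAR1, FBL, NOLC1 and RRS1. This is 6 of 56 members called at a false discovery rate of 0.1 by edgeR, where 2.69% of all genes were called in either direction and 2.66% as lower. DESeq2 also called 6 members, and its count over all genes is not given here. No member rose. At an unadjusted p under 0.05 there were 12 members, where 14.8% of all genes passed. The fallen genes are 2 of the 4 general nucleolar proteins (NCL and NOLC1), 2 of the 7 snoRNP proteins (FBL and GAR1), 1 of the 27 small subunit factors (NOB1) and 1 of the 16 large subunit factors (RRS1), and they lie on 6 chromosomes.

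NCL, nucleolin, an RNA-binding protein of the nucleolus that takes part in rDNA transcription and pre-rRNA processing, had 392 and 506 CPM of mRNA in the Cas9 libraries (replicates a and b) and 701 and 900 in the dCas9 libraries (a and b). Both Cas9 libraries were below both dCas9 libraries. The means were 449 ± 80.8 and 800.4 ± 141 CPM (SD, n = 2 each), a level of 0.561 times that in dCas9 cells (log2 fold change −0.83, SE 0.151, adjusted p = 0.0281, edgeR). NCL lies at chr2:231453531-231483641 on the minus strand of hg38 in the GENCODE annotation, and 0.711% of all tested genes had a lower fold change.

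NOB1, the endonuclease that makes the final cut at the 3′ end of 18S rRNA in pre-40S particles, had 42.0 and 53.2 CPM of mRNA with Cas9 and 79.6 and 84.0 with dCas9. The gap between the groups was wider than the spread within either, and the level was 0.582 times that in dCas9 cells (log2 fold change −0.78, SE 0.144, adjusted p = 0.0281, edgeR). NOB1 lies at chr16:69741871-69754926 on the minus strand. 1 antisense gene overlaps it, and whether counting used the strand is not given in the sources used here.

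GAR1, a core protein of the H/ACA snoRNPs at chr4:109815510-109824740 on the plus strand, had the largest fold change of the members and the thinnest counts. Its mRNA counts were 93 and 65 with Cas9 and 136 and 282 with dCas9, which is 2.71 and 1.99 CPM against 3.95 and 6.63. The dCas9 libraries differed from each other by more than the nearest Cas9 and dCas9 libraries did. Its fitted log2 fold change came to −1.18 (SE 0.273, adjusted p = 0.0711, edgeR), a level of 0.442 times that in dCas9 cells.

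FBL, at chr19:39834458-39846379 on the minus strand, had 229.6 and 332 CPM of mRNA with Cas9 and 429.7 and 428 with dCas9. The dCas9 libraries lay close together while the Cas9 libraries were apart, with replicate a the lower, with a fitted log2 fold change of −0.61 (SE 0.156, adjusted p = 0.0892, edgeR). NOLC1, at chr10:102152176-102163871 on the plus strand, had 269 and 307 CPM against 394 and 404 (−0.47, SE 0.118, adjusted p = 0.0878, edgeR). RRS1, at chr8:66429014-66430733 on the plus strand, had 17.2 and 23.4 against 31.1 and 31.6 CPM (−0.63, SE 0.162, adjusted p = 0.0914, edgeR). Cas9 replicate a was the lowest library in 5 of the 6 genes, and Cas9 replicate b was in GAR1.

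These calls rest on the Cas9 library a. Without it, 0 of the members and 5 of all genes were called, although the 6 log2 fold changes stayed negative, at −1.42 to −0.37. Without dCas9 library b, 23 members and 2828 of the 10896 genes were called, 16 of the members higher with Cas9, and with a GC correction 18 members, among them all 6, and 2373 of all genes were called.

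**Figure D2:**
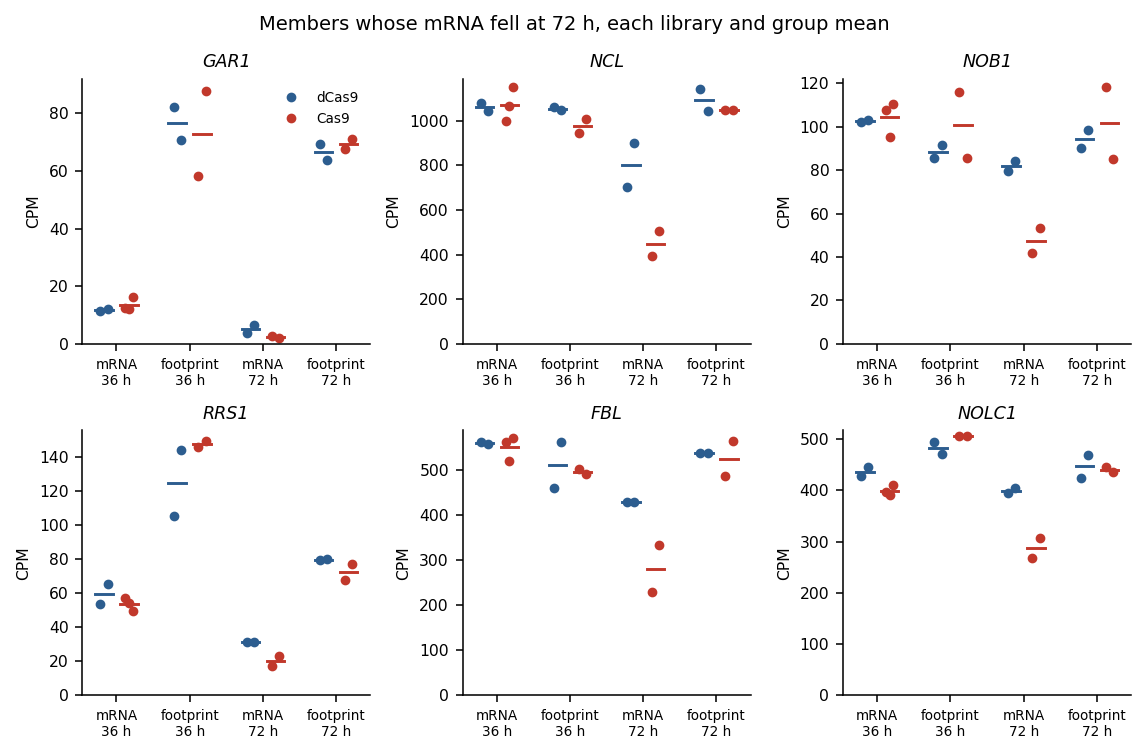
CPM of each of the 6 members whose mRNA fell at 72 h, one panel per gene with its own axis from 0, for mRNA and footprints at 36 h and 72 h, with a point for each library and a bar for each group mean. In the mRNA at 72 h every Cas9 point lies below every dCas9 point (NCL: 392 and 506 against 701 and 900), while in the footprints at 72 h the groups overlap in every gene but RRS1 (NCL: 1048 and 1047 against 1141 and 1044).

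The upstream sequences of the fallen members are shown because these genes moved in the same direction, and any letters their promoters share can be read from them. RefSeq promoter entries were found for 49 of the 56 members. RRS1 and NOLC1 were without one. The sequences below are from GRCh38.p14, 5′ to 3′ on the strand of the gene, and lie upstream of the start in RefSeq: NCL from chr2:231464552-231464734 (minus), shortened where exons of some NCL transcripts begin, FBL from chr19:39846380-39846629 (minus), NOB1 from chr16:69754927-69755176 (minus) and GAR1 from chr4:109815260-109815509 (plus). The NCL stretch lies inside the longer GENCODE span of NCL given above, since the RefSeq start is 19157 bases downstream of the outermost GENCODE start. Capitals mark CCAAT on either strand (ATTGG is its reverse) in NCL and FBL, and TGCGCA, its own reverse complement, in NOB1 and GAR1.
NCL: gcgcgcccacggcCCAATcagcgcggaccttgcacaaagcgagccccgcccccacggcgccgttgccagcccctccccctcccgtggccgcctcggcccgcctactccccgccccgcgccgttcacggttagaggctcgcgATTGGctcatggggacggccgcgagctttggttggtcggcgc
FBL: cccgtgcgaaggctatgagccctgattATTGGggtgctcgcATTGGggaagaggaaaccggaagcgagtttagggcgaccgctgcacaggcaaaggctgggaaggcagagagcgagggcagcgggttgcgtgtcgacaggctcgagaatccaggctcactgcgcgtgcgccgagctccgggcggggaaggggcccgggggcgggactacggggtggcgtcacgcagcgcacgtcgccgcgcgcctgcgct
NOB1: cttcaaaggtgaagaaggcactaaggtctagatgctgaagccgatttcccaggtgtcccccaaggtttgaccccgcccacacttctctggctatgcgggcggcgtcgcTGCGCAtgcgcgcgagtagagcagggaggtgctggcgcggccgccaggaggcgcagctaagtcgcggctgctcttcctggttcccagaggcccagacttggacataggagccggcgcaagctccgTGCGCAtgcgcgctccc
GAR1: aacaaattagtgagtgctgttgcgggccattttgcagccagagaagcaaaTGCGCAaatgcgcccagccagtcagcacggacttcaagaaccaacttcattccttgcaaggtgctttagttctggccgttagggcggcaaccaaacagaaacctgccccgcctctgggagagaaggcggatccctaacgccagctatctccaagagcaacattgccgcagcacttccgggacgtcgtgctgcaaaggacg

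NCL and FBL each hold 2 CCAAT boxes and NOB1 holds 2 copies and GAR1 1 copy of TGCGCA. Searched were these motifs and CACGTG, the E-box, on both strands of the 250 bases upstream of each start, and no match overlaps another in the sequences shown. CCAAT was found upstream of 19 of the 49 members (38.8%), beside 32.0% of all 35116 promoters. CACGTG was found in 7 members (14.3%), beside 6.34% of all, and TGCGCA in 11 (22.4%), beside 6.89% of all. Each member was counted once, by the entry nearest its GENCODE start. The 35116 promoters are all entries, not limited to tested genes, so the sets are unlike. Of the members with CACGTG, 6 were among the 25 small subunit factors with an entry and 0 among the 13 large subunit factors. A match describes the letters and not the binding of a factor, and it was not tested against the measurements.

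Around these calls, the members spread to both sides. The median log2 fold change of mRNA at 72 h was 0.05, beside 0.02 over all genes, with 33 of 56 members above 0 and a median size of 0.186, beside 0.157 over all genes. The groups did not overlap for 17 members that were higher and for 15 that were lower with Cas9, where 24.4% and 25.2% of all genes were. 12 of the 16 large subunit factors lay above 0 (median 0.11) and 14 of the 21 processome proteins did (median 0.08), while 5 of the 6 late 40S factors lay below 0 (median −0.10).

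The members highest with Cas9 were RIOK2, a kinase of late 40S maturation, NPM1 and UTP11 of the processome, and none of them passed the adjusted test. RIOK2 mRNA was at 53.6 and 51.1 CPM against 33.2 and 48.4 (log2 fold change 0.36, SE 0.17, adjusted p = 0.35, edgeR). NPM1 mRNA was at 2457 and 2359 CPM against 1741 and 2125 (0.32, SE 0.114, adjusted p = 0.235, edgeR), and UTP11 was at 111.6 and 110.8 against 81.8 and 102. In each of the 3, the lowest value was that of dCas9 library a.

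Lower without passing were BYSL, at 31.9 and 43.3 CPM with Cas9 against 55.4 and 53.0 with dCas9 (log2 fold change −0.53, adjusted p = 0.149, edgeR), and a group of processome proteins. UTP4 and UTP3 both had a log2 fold change of −0.43, MPHOSPH10 had −0.40 and the rRNA acetyltransferase NAT10 −0.31. DKC1 and POLR1A both stood at −0.23, with an adjusted p of 0.395 and 0.392 (edgeR). The small U3 trimer thus had 1 protein near the lower end of the members, MPHOSPH10, and NPM1 and NCL, which are often named together, had fold changes of opposite sign.

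**Figure D3:**
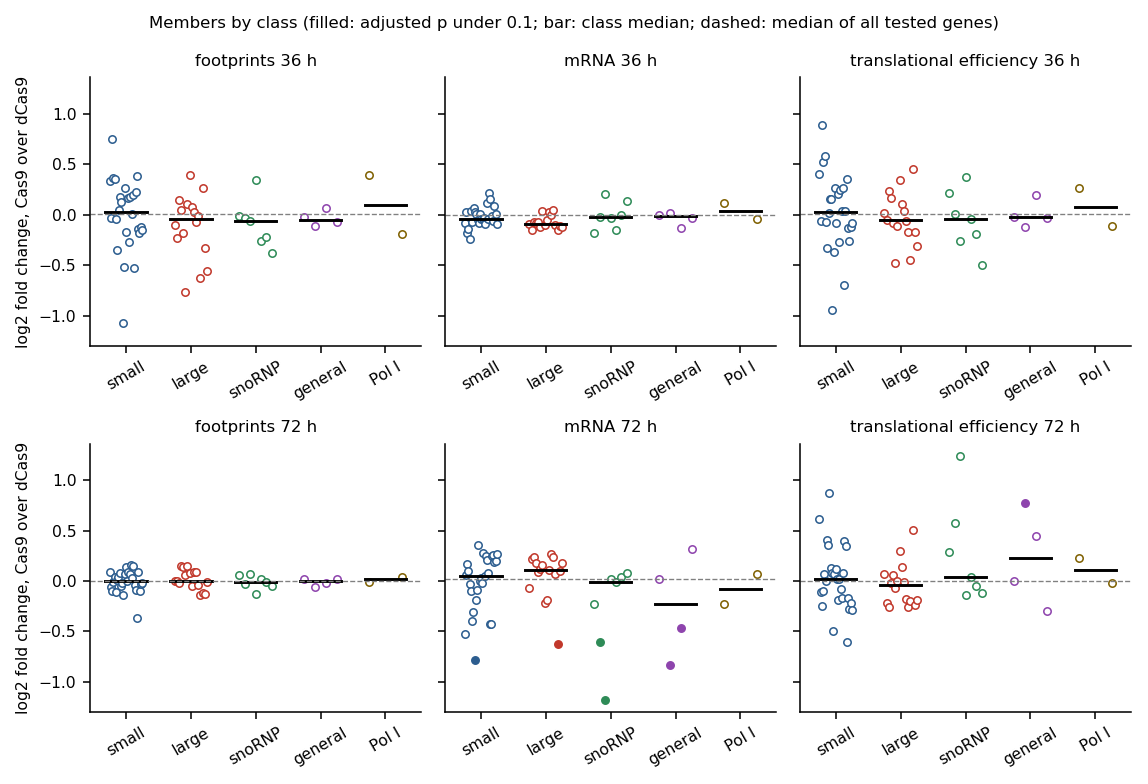
Log2 fold change of each member, Cas9 over dCas9, by class, with a panel for each comparison, filled points for an adjusted p under 0.1, a bar for the class median and a dashed line for the median of all tested genes. Filled points appear in mRNA at 72 h (GAR1 at −1.18 is the lowest of 6) and in translational efficiency at 72 h (NCL).

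The fold changes of mRNA at 72 h moved with base composition. Across members, Spearman's rho between the log2 fold change and the GC content of the coding sequence was −0.49 (n = 56), and across all tested genes it was −0.415 (n = 10856). The genes come from the same 4 libraries, so this is a description across genes. Of the 20 members above the median GC content of all genes (51.71%), 13 lay below 0 (median −0.05), and of the 36 others 10 did (median 0.11). Coding GC was 46.67% in NCL, 50.69% in GAR1, 52.9% in NOLC1, 56.07% in NOB1, 57.74% in FBL and 64.57% in RRS1, so 4 of the fallen genes lie above that median and 2 below. With a GC correction, 0 members were called in footprints at either time and in mRNA and translational efficiency at 36 h, and 8 were called in translational efficiency at 72 h, where 583 of all genes were.

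**Figure D4:**
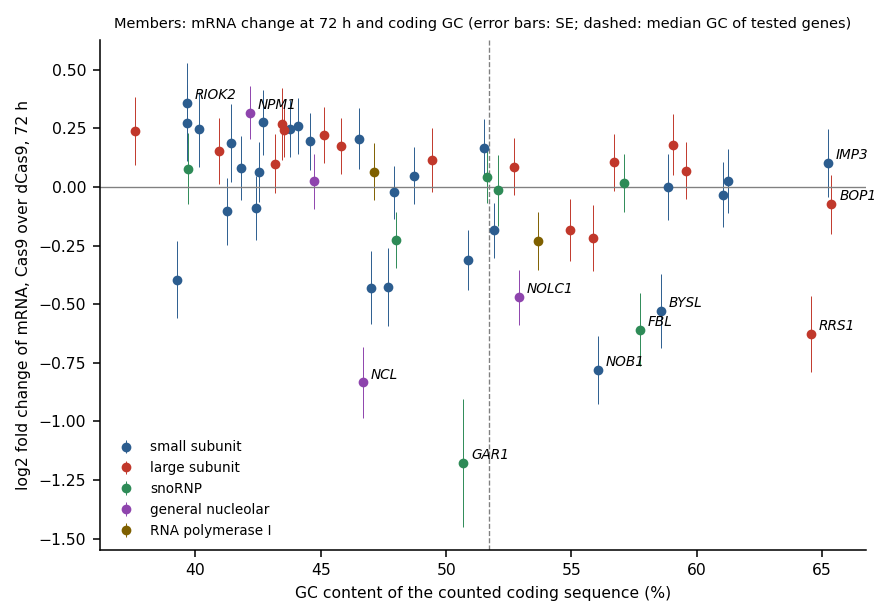
Log2 fold change of mRNA at 72 h, Cas9 over dCas9, against the GC content of the counted coding sequence in percent, for each member with its standard error and coloured by class, with a dashed line at the median GC content of all tested genes (51.71%). Members of higher GC content tend to lie lower (Spearman's rho −0.49), and GAR1, NCL and NOB1 lie below the bulk of the members at their GC content.

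No fall was called in footprints at 72 h. No member passed the false discovery rate of 0.1 in edgeR (0 in DESeq2 too), where 0.0367% of all genes passed in edgeR, and 1 member, UTP6, had an unadjusted p under 0.05, where 3.83% of all genes did. The median log2 fold change of the members was −0.00456, beside 0.00181 over all genes, with a median size of 0.0576 for members and 0.109 for all genes. Again, the sizes were not matched for footprint level, which was higher in the members. The groups did not overlap for 8 members that were higher and for 6 that were lower, where 15.8% and 15.9% of all genes were.

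NCL footprints were at 1048 and 1047 CPM in the Cas9 libraries (e and f) and at 1141 and 1044 in the dCas9 libraries (e and f), a log2 fold change of −0.06 (SE 0.0629). NOB1 footprints were at 118 and 85.3 against 90.4 and 98.6 CPM (0.08, SE 0.115), and GAR1 footprints at 67.6 and 71.0 against 69.4 and 63.8 (0.07, SE 0.114). In these 3 genes the groups overlapped. FBL footprints were at 486 and 564 CPM against 538 and 538 (−0.03, SE 0.0723), and NOLC1 footprints at 445 and 436 against 425 and 469 (−0.02, SE 0.0723). RRS1 footprints were at 67.6 and 77.5 against 79.4 and 79.9 CPM (−0.12, SE 0.11), lower in both Cas9 libraries but within about 1 standard error of 0. The paper describes lysates as split between both kinds of library. At 72 h the letters of footprint and mRNA libraries differ, so which of them share a lysate is not known.

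UTP6 of the UTP-B complex was the member whose footprints were lowest with Cas9, at 87.7 and 88.3 CPM against 116 and 110.5. The libraries of each group lay close together and far from the other group, with a log2 fold change of −0.36 (SE 0.0997, unadjusted p = 0.000903), but the p adjusted over all genes was 1.0 (edgeR). Its mRNA had a log2 fold change of 0.25. RIOK2 footprints were at 42.1 and 40.01 against 47.5 and 42.9 CPM, and those of RRP1, a large subunit factor, at 104 and 96.5 against 104.8 and 114. Among members whose groups did not overlap, those highest with Cas9 were UTP15 (46.5 and 40.2 against 39.0 and 38.1 CPM), GTPBP4, a GTPase of early 60S assembly (133 and 121 against 115 and 113), and NMD3, the export adaptor of the 60S subunit (78.6 and 72.6 against 66.9 and 68.9). Each of these 3 had a log2 fold change of 0.15, with standard errors of 0.0951 to 0.142.

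Translational efficiency of NCL rose in Cas9 cells at 72 h. NCL was the 1 member called by edgeR (log2 difference 0.78, SE 0.174, adjusted p = 0.076), where 0.716% of all genes were called. DESeq2 called 5 members, and its count over all genes is not given here. At an unadjusted p under 0.05 there were 10 members, where 11.2% of all genes passed. GAR1 had 1.24 (SE 0.301, adjusted p = 0.105), NOB1 0.88 (SE 0.214, adjusted p = 0.106) and UTP6 −0.61 (SE 0.151, adjusted p = 0.106) by edgeR. BYSL and FBL had 0.62 and 0.58, RRS1 0.50, NOLC1 0.45 and NPM1 −0.30. The call of NCL was lost without mRNA of Cas9 replicate a (adjusted p = 0.161, edgeR) and without any single footprint library (adjusted p = 0.264 to 0.411). The members together had a median of −0.00126, beside 0.00101 over all genes.

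The fall of mRNA at 72 h was set against 36 h for the same genes. At 36 h, NCL mRNA was at 998, 1067 and 1149 CPM with Cas9 against 1080 and 1040 with dCas9, and NOB1 at 108, 95.2 and 110 against 102 and 103, with overlap in both genes. The 36 h log2 fold changes were 0.02 for NCL, 0.03 for NOB1, −0.02 for FBL, 0.21 for GAR1, −0.13 for NOLC1 and −0.15 for RRS1. In a fit of both times, chosen after these values were seen, the change at 72 h minus that at 36 h was −0.86 for NCL (SE 0.182, adjusted p = 0.0679, edgeR) and −0.82 for NOB1 (SE 0.173, adjusted p = 0.0679, edgeR). These were 2 of 55 members called, where 0.613% of the 8970 genes tested at both times were called. Each of these 2 results held in 5 of 10 alternative settings.

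The difference was −1.40 for GAR1 (SE 0.38, adjusted p = 0.164), −0.60 for FBL (SE 0.176, adjusted p = 0.204), −0.35 for NOLC1 (adjusted p = 0.294) and −0.49 for RRS1 (adjusted p = 0.376), so a change with time was not shown for these 4 by edgeR. In footprints the same comparison called 0 members in edgeR and 0 in DESeq2, where 0.0% of all genes were called in edgeR, and 2 members had an unadjusted p under 0.05, UTP20 and RIOK1. The time points also differ in guide preparation and, according to the methods, in aligner and annotation, which cannot be told apart from time.

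Small and large subunit factors were compared as sums of their levels. At 36 h, the ratio of the summed footprint level of the small subunit factors to that of the large subunit factors, in CPM per kilobase, was 1.38 and 1.19 in the Cas9 libraries and 1.16 and 0.986 in the dCas9 libraries. Both Cas9 values lay above both dCas9 values, by less than the libraries of a group differed. For mRNA at 36 h it was 1.023, 1.036 and 1.045 with Cas9 and 1.01 and 1.02 with dCas9. At 72 h it was 1.11 and 1.06 against 1.10 and 1.10 in footprints, and 1.01 and 1.02 against 1.05 and 1.10 in mRNA.

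The median log2 fold change of the small subunit factors minus that of the large subunit factors was 0.0676 for footprints at 36 h, with an SD of 0.142 over the pairs of libraries. It was 0.0478 (SD 0.0668) for mRNA at 36 h, −0.00114 (SD 0.0478) for footprints at 72 h and −0.0617 (SD 0.0675) for mRNA at 72 h. For translational efficiency it was 0.0792 (SD 0.152) at 36 h and 0.066 (SD 0.0827) at 72 h. In each of these comparisons the difference between the routes was smaller than the spread between pairs of libraries. The pairs share libraries and are not independent. At 36 h the sign changed in 0 of 10 alternative settings for footprints and 0 of 11 for mRNA. At 72 h it changed in 7 of 13 and 1 of 14. For translational efficiency it changed in 4 of 15 at 36 h and 1 of 15 at 72 h.

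**Figure D5:**
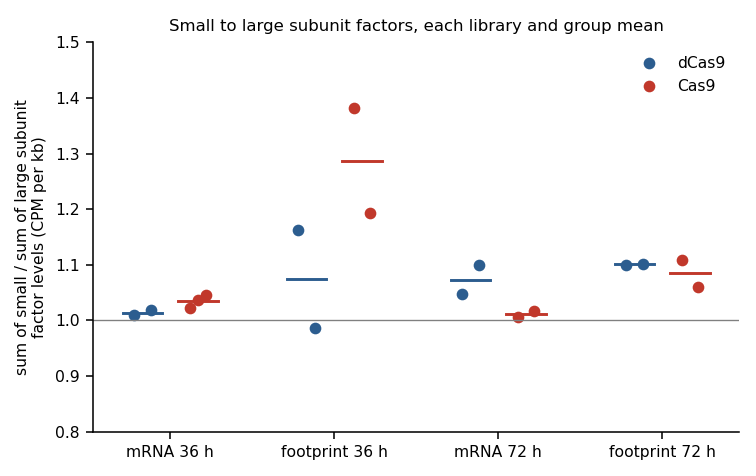
Sum of the levels of the small subunit factors divided by that of the large subunit factors, in CPM per kilobase, for each library (points) and as group means (bars), by library type and time. Footprint libraries at 36 h range from 0.986 to 1.38, while all mRNA libraries lie between 1.01 and 1.10.

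Other genes of the pathway were read from 4 lists of further factors. In mRNA at 72 h, 1 of 18 other RNA polymerase I genes fell, TAF1C of the selectivity factor (log2 fold change −0.66, SE 0.171, adjusted p = 0.0912, edgeR), and 1 of 35 other 40S factors, the kinase CSNK1D (−0.75, SE 0.161, adjusted p = 0.0564, edgeR). Of the 42 other 60S factors tested, 0 passed in edgeR and 1 in DESeq2, with 4 at an unadjusted p under 0.05, and of the 14 exosome genes 0 passed in either, with 0 at an unadjusted p under 0.05. The exosome, the complex that trims pre-rRNA from its 3′ end, had 12 of 14 genes above 0 in mRNA (median 0.09) and 13 of 14 below 0 in translational efficiency (median −0.17) at 72 h. Both counts use the same mRNA libraries. Of all 10896 genes, 5791 lay above 0 in mRNA and 5434 below 0 in translational efficiency. Above 0 in mRNA were 26 of 42 other 60S, 19 of 35 other 40S and 11 of 18 polymerase I genes. Below 0 in translational efficiency were 27, 22 and 9 of these. Over all genes, 2.69% were called by edgeR in mRNA at 72 h and 14.8% had an unadjusted p under 0.05. The DESeq2 count over all genes is not given here. In the other comparisons 0 genes of these lists passed in edgeR or DESeq2.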

How the data were processed

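Ribosome footprints and rRNA-depleted RNA were sequenced as single-end reads. According to the methods, the authors used hisat2 with GENCODE release 22 for the 36 h reads and tophat with GENCODE release 25 for the 72 h reads, while the submitters' processing notes list HISAT2 2.1.0 and GRCh38. Deposited were raw read counts of each transcript's coding part, tabulated by fp-count and not normalized.

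Transcripts were matched by identifier to GENCODE release 44 on hg38, which left 3.741% of the counts unmatched at 36 h and 4.218% at 72 h, and each gene was represented by its transcript with the highest total count. Genes were tested if their mean count reached 20 in the footprint and 20 in the mRNA libraries. Each library type and time point was fitted alone in edgeR 4.0.16 (R 4.3.3) with TMM normalization, the quasi-likelihood test and Benjamini-Hochberg adjustment over all tested genes at a false discovery rate of 0.1. Translational efficiency was the interaction of nuclease and library type in a joint fit. CPM used TMM-scaled library sizes, and log values a prior count of 2. Library depths are given above, and counting error is largest for the footprints at 36 h. DESeq2 1.42.0 and the other alternatives are reported further on, and the fits were tested on simulated data.

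Full values are given for members that passed, for the 3 largest increases and decreases without overlap between groups in each comparison, for the 3 highest and lowest levels and ratios, and for NPM1, NCL, FBL, DKC1 and POLR1A. BYSL, UTP3, UTP4, MPHOSPH10 and NAT10 in mRNA at 72 h were named after their values were seen. The members and lists were chosen with earlier results of these data known. Nothing beyond plate pools separates the replicates, so p-values measure the spread between these samples. The 36 h footprint library of Cas9 replicate b was not used here.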

Additional observations from a re-analysis of the deposited data

Results flagged for a closer look

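In 2 members the mRNA change differed between the time points by a test of the difference itself, chosen after the values were seen. For each of them this result held in 5 of 10 alternative settings. With 1 library left out, the difference was −1.05 to −0.654 for NCL and −0.996 to −0.644 for NOB1. The change at 72 h minus the change at 36 h was −0.86 on the log2 scale for NCL and −0.82 for NOB1, both with an adjusted p of 0.0679 in edgeR (quasi-likelihood test, Benjamini-Hochberg over 8970 genes). Leaving out single mRNA libraries gave 0 to 4 called members, and DESeq2 gave 4. Counts over all genes are not given for these settings. The time points differ in guide preparation and, according to the methods, in aligner and annotation. The part of these in the difference was not tested.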

How the results depend on the processing

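Of the alternatives to the member counts, medians and small-minus-large differences, 213 stayed near the reported value and 40 moved. Of the 156 alternatives to the medians and small-minus-large differences, which carry no test, 34 had the opposite sign, among them 10 of 15 for the median of translational efficiency at 72 h and 7 of 13 for the small-minus-large difference in footprints at 72 h, while the median of mRNA at 72 h kept its sign in all 14. For mRNA at 72 h (6 members called), DESeq2 size factors in edgeR called 2 (185 of all genes, against 293), a GC offset 18 (2373) and a replicate block with the GC offset 20 (2991), and leaving out 1 library gave 0 to 23. The median member change (0.0547) became 0.0278 with the GC offset, 0.0304 with both, and 0.0369 to 0.0608 with 1 library left out. NCL and NOB1 passed in each setting but the one without Cas9 library a. GAR1, FBL, NOLC1 and RRS1 were also lost with DESeq2 size factors, NOLC1 without Cas9 library b, and FBL and RRS1 without dCas9 library a.

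Translational efficiency at 72 h (1 member called) gave 5 with DESeq2, 4 with DESeq2 size factors, 3 without a count minimum, 8 with the GC offset and 0 to 10 with 1 library left out, where the median ranged from −0.0452 to 0.0289. At 36 h it gave 0 to 4 members with 1 library left out, and the median (−0.035) was 0.043 with the GC offset and −0.0847 to 0.0372 with 1 library left out. With 1 library left out, footprints at 36 h gave 0 to 1 members, a median of −0.106 to 0.00417 and a small-minus-large difference of 0.0664 to 0.221. Footprints at 72 h gave a median of −0.0043 to 0.025 and a difference of −0.0914 to 0.0261, and mRNA at 36 h gave 0 to 1 members and a median of −0.0816 to 0.027. A lone library left in a group was assumed to vary like the others. The difference between the times (2 members) gave 4 with DESeq2 and 0 to 4 with 1 library left out. Except for the GC offset at 72 h, counts over all genes are not given for the settings of this paragraph. The member counts therefore cannot be told apart from a shift in calls over all genes. Beyond the construction of each setting, the cause was not tested.

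For libraries that share a replicate letter at 72 h, deviations from the group means correlated at 0.0123 in footprints and −0.139 in mRNA. With 2 libraries in each group, these correlations cannot decide whether the letters pair the libraries. With the letters as a replicate block, 8 members were called in mRNA at 72 h (725 of all genes), 1 in translational efficiency and 0 in footprints. With the mRNA letters crossed, a setting added after seeing the data, 8 were called in mRNA and 6 in translational efficiency. Counts over all genes are not given for the crossed letters. The letters at 36 h, taken as lysates, gave correlations of 0.062 and 0.0101, which cannot decide the pairing either, and the block called 0 members. Depth limits the footprints at 36 h most.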
